A study of Mus musculus with 8 samples.

Results

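Neutrophils and their precursors fill their granules with a small set of proteins, and 10 genes of that set were followed here in cultured dendritic cells. They are *Elane*, *Mpo*, *Prtn3* and *Ctsg* of the azurophil granule, *Ngp*, *Ltf* and *Camp* of the specific granule, the cytosolic pair *S100a8* and *S100a9*, and *Gfi1*, a transcription factor of the granulocyte lineage. The genes were chosen by name, with earlier results of these data known, and all 10 were found among the 47937 gene IDs counted. The cells were mouse bone marrow-derived dendritic cells (BMDCs), grown from adult bone marrow on a C57BL6/J background for 8 days with 20 ng/ml GM-CSF, a growth factor for granulocytes, macrophages and dendritic cells (DCs). The 4 groups of 2 libraries each were WT cells (Cre-negative) and 3x*Grk*-/- cells, both either unstimulated or after 24 h with 20 ng/ml LPS, a bacterial cell wall component that matures DCs. 3x*Grk*-/- cells carry *Vav1*-iCre, *Grk2* fl/fl, *Grk3*-/- and *Grk6* fl/fl, and so are meant to lack 3 kinases that desensitise G-protein coupled receptors. *Vav1*-iCre is active from early blood-forming precursors onward, so the alleles were recombined before the culture began and in every lineage that could grow in it. Bone marrow brings granulocytes and their precursors into the dish, and GM-CSF cultures hold DC-like and macrophage-like cells side by side, so a BMDC library is an average over a mixed culture. In such bulk RNA, fewer cells of a type and less RNA per cell cannot be told apart.

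Granules are built in order as a neutrophil matures. Promyelocytes make the azurophil granule, with myeloperoxidase and the serine proteases neutrophil elastase, proteinase 3 and cathepsin G. Myelocytes then make the specific granule, with lactoferrin, the cathelicidin precursor and, in mice, neutrophilic granule protein, and transcription of the early genes is by then shut down. S100A8 and S100A9 form calprotectin, a metal-binding heterodimer that fills the neutrophil cytosol and is also made by monocytes. GFI1 is a zinc-finger repressor that neutrophil precursors need in order to mature, while C/EBP factors and PU.1 are known activators of many granule genes. DCs are not known for any of these granules.

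The stretches before the start sites of the 10 genes were also read for motifs, as a description. Whether these motifs have a part in the RNA levels was not tested. The windows searched ran from 250 bases before to 50 bases after the start in RefSeq (GRCm38.p6), and all 10 genes matched, *Gfi1* with 2 windows. On both strands, 3 motifs were searched: TTGCNNAA for C/EBP factors, GAGGAA for PU.1 and AATCNNNGC for GFI1. None of them overlapped another in the windows of these genes. GAGGAA lay in the windows of all 4 azurophil genes, and also of *S100a8* and *Ltf*, which makes 6 of 11 windows where 28.3% of 32851 mouse promoter windows hold it. TTGCNNAA lay in 4 of 11 windows, those of *S100a9*, *Ngp*, *Ltf* and 1 of *Gfi1*, where 10.8% of all windows hold it. AATCNNNGC was in 0 of 11, against 10.3% of all windows, and *Camp* held none of the 3 motifs. Shown next are the bases upstream of the annotated gene for 5 members, *Elane* and *Mpo* for the azurophil pattern, *Ngp* and *Ltf* for the specific granule and *S100a9* for the calprotectin pair, each 5′ to 3′ on the strand of the gene with motif matches in capitals. A match is only a run of letters and not a binding site.
Elane: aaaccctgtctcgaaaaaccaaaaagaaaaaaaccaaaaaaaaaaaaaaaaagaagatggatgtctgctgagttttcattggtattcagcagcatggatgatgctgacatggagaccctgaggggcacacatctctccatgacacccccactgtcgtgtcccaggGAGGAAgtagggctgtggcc
Mpo: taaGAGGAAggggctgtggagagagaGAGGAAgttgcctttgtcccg
S100a9: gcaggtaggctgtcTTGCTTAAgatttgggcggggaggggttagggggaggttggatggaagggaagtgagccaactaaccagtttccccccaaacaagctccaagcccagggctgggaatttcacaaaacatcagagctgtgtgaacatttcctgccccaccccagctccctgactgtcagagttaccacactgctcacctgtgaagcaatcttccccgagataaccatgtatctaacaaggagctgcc
Ngp: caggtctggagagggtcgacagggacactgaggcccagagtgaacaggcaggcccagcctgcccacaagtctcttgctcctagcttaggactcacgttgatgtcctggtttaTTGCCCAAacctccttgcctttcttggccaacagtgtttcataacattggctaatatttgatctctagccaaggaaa
Ltf: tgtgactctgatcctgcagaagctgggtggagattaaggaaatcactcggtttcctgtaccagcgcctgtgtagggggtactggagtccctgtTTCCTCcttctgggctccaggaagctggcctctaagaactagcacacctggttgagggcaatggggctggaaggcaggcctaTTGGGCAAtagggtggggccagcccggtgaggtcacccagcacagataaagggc
The *Elane* stretch is chr10:79886062-79886246 on the plus strand, with GAGGAA at positions -85 to -80 from the start. The *Mpo* stretch, chr11:87793534-87793580 on the plus strand, is short because annotated exons begin there, and it holds GAGGAA at -247 to -242 and again at -224 to -219. For *S100a9*, chr3:90695722-90695971 on the minus strand, the capitals mark a C/EBP match at -236 to -229. *Ngp*, chr9:110419558-110419746 on the plus strand, has a C/EBP match at -138 to -131, and another at -11 to -4 lies past the printed stretch. *Ltf*, chr9:111019042-111019270 on the plus strand, has the reverse complement of GAGGAA at -157 to -152 and a C/EBP match at -75 to -68.

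Several of these genes are neighbours in the genome (GRCm38, GENCODE M21). *Prtn3* (chr10:79874476-79883174) ends 3.07 kb before *Elane* (chr10:79886247-79888215), both on the plus strand. *S100a8* (chr3:90668978-90670035, plus) and *S100a9* (chr3:90692632-90695721, minus) lie 22.6 kb apart. *Camp* (chr9:109847379-109849617, minus), *Ngp* (chr9:110419747-110423012, plus) and *Ltf* (chr9:111019271-111042767, plus) follow one another on chromosome 9 with gaps of 570.1 kb and 596 kb. *Mpo* (chr11:87793581-87804413, plus), *Ctsg* (chr14:56099881-56102574, minus) and *Gfi1* (chr5:107716657-107726036, minus) stand alone. All 10 are protein-coding. *Mpo*, *Prtn3* and *Gfi1* overlap a gene on the other strand. The counts of those partners were 0 to 5 per library, and whether reads in the overlaps were lost or shared was not tested.

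The libraries held 4713305 to 6933358 counts on genes, so 1 count was worth 0.140 to 0.191 CPM, the counts of a gene scaled to a common library total. *Grk2* was lower in 3x*Grk*-/- cells in both comparisons, at 146 to 151 CPM against 320.2 to 320.9 without LPS and 184 to 199 against 677 to 736 with LPS. *Grk6* was at 36.9 to 37.0 CPM against 83.4 to 85.4 and, with LPS, at 32.6 to 34.0 against 91.8 to 101, and *Grk3* stood at 263 to 267 against 338 to 341 and at 335 to 343 against 444 to 460. Where the remaining reads of these genes come from was not tested, and the direction followed the labels in all 8 libraries. The DC markers (10 genes) summed to 13389 to 25885 CPM and none was at 0. In unstimulated WT cells *Cd74* alone had a mean of 11952 CPM and *Flt3* 17.2 CPM, so the sum says little about the label BMDC. A ribosomal RNA-overlapping gene, *Gm42418*, took 2.16% of counts in replicate 2 of LPS-stimulated 3x*Grk*-/- cells and 0.273 to 0.638% elsewhere, and leaving it out changed no count of called granule genes.

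Together the 10 genes took 0.0779 to 0.0832% of all counts in unstimulated WT cells, 0.0543 to 0.0563% in unstimulated 3x*Grk*-/- cells, 0.0328 to 0.0377% in WT cells after LPS and 0.0168 to 0.0180% in 3x*Grk*-/- cells after LPS. This small pool was thus lower in 3x*Grk*-/- than in WT cells and lower after LPS, and no pair of groups overlapped. In CPM scaled by TMM, which corrects for library composition, the sums were 705 to 749, 520 to 539, 342 to 397 and 185 to 203 in the same order. Such a sum says little about the rarer genes, so each gene is taken in turn.

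**Figure D1:**
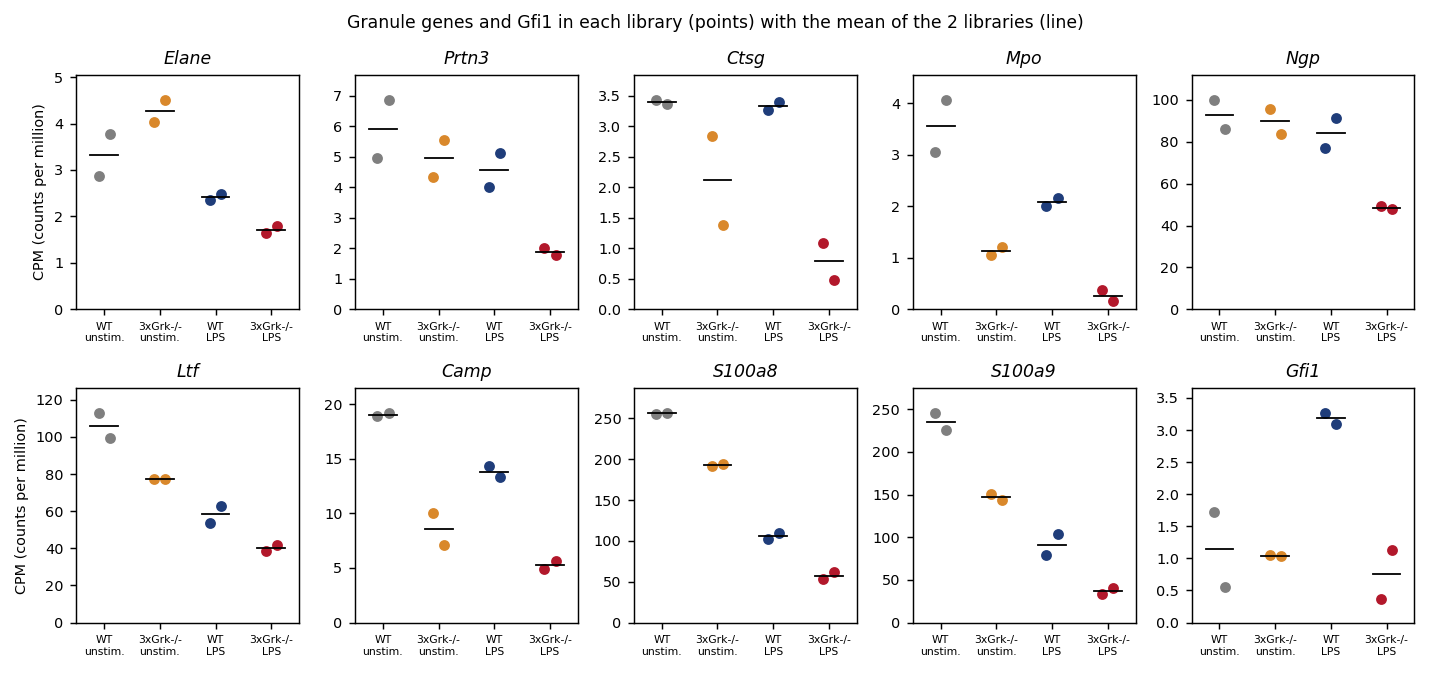
Level of each of the 10 genes in CPM (vertical axis, starting at 0, its own scale in each panel) in the 4 groups (horizontal axis), with 1 point for each library and a line at the mean of the 2 libraries. In every panel the 2 LPS-stimulated 3x*Grk*-/- points lie below the 2 LPS-stimulated WT points, while without LPS the *Elane* points lie above those of WT cells without passing the test, and *Ngp*, *Prtn3* and *Gfi1* overlap.

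The first question was whether loss of the 3 kinases changed these transcripts in unstimulated cells. At an adjusted p under 0.05 (edgeR quasi-likelihood fit, Benjamini-Hochberg over all genes tested), 5 of the 9 genes tested were lower in 3x*Grk*-/- cells and 0 were higher. The background was wide, since 44.7% of the 12000 genes tested were called, and 22.7% of the genes tested were called as lower. The 5 were *Mpo*, *Camp*, *S100a9*, *Ltf* and *S100a8*, and *Gfi1* was too low to be tested. The libraries of the genotypes did not overlap for 7 of the 9, where 69.1% of all genes tested had no overlap. The median log2 fold change of the 9 was -0.45, against -0.00 for all genes tested.

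With LPS the same comparison called 9 of 10, all of them lower in 3x*Grk*-/- cells. Here 48.6% of the 11830 genes tested were called and 24% were called as lower. All 10 were lower without overlap, compared with 36.6% of all genes tested, and their median log2 fold change was -1.29 against -0.01. *Elane* was the gene that did not pass. *Mpo* (2 and 1 counts), *Ctsg* (6 and 3) and *Gfi1* (2 and 7) were low in the LPS-stimulated 3x*Grk*-/- libraries. They passed the count filter for testing through the WT libraries, so a call as lower was favoured in advance for them. The same held for *Mpo* without LPS, at 7 counts in both 3x*Grk*-/- libraries. The libraries within a group were close, with a common biological coefficient of variation (BCV) of 0.0306 without and 0.0573 with LPS, and the methods speak of technical replicates. If every gene is given a BCV of 0.4, a value used for samples that vary more, the same counts become 0 of 9 and 1 of 10, so the calls describe these libraries.

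**Figure D2:**
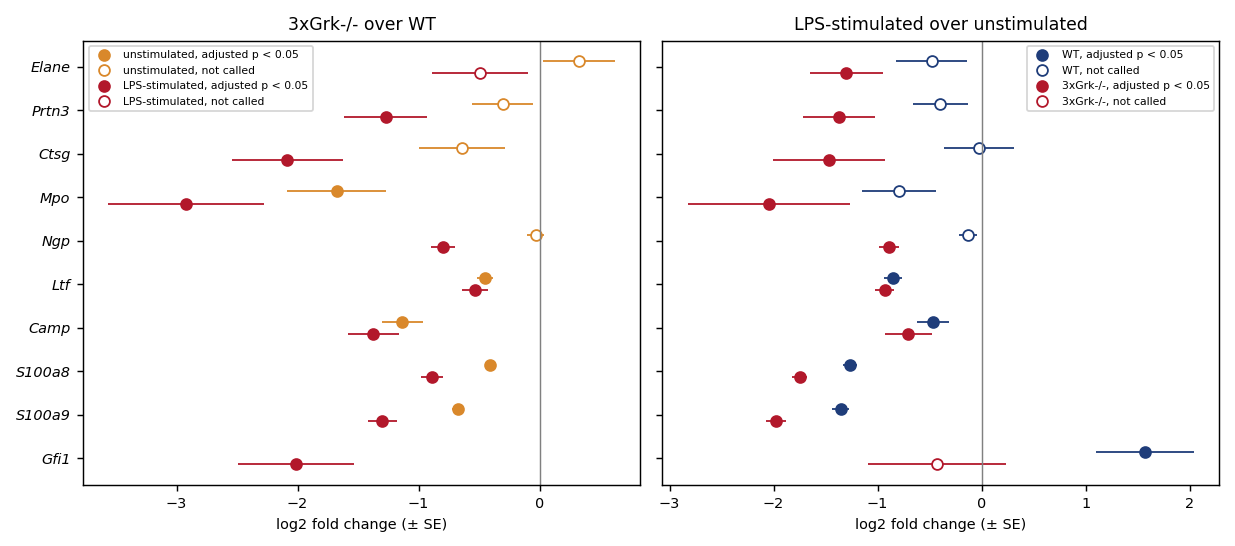
Log2 fold change with its standard error (horizontal axis) of each gene, on the left for 3x*Grk*-/- over WT cells and on the right for LPS-stimulated over unstimulated cells of each genotype. Filled circles passed an adjusted p of 0.05 and open ones did not. With LPS 9 of 10 genotype changes are filled and all lie left of 0, and *Gfi1* in WT cells is the lone filled circle to the right of 0.

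*Mpo*, which encodes the peroxidase that turns hydrogen peroxide into hypochlorous acid, showed the largest genotype differences among the 10. Its level was 3.06 and 4.06 CPM in unstimulated WT cells, 1.05 and 1.22 CPM in unstimulated 3x*Grk*-/- cells, 1.996 and 2.17 CPM in WT cells after LPS, and 0.364 and 0.162 CPM in 3x*Grk*-/- cells after LPS. The 4 groups were ordered without overlap, with both WT groups above both 3x*Grk*-/- groups. Without LPS the log2 fold change between genotypes was -1.68 ± 0.41 (SE, n = 2 against 2; edgeR, adjusted p = 0.000139), which leaves 31.3% of the WT level. That call rested on 14 against 45 counts, and DESeq2 gave an adjusted p of 0.0595. With LPS it was -2.92 ± 0.64 (edgeR, adjusted p = 0.000511). Only 3 counts stood against 25 there, a ratio of 8.12 in favour of WT with a 95% counting interval of 2.48 to 42.0. The log2 fold change was -3.52 without replicate 1 and -2.44 without replicate 2 of the LPS-stimulated 3x*Grk*-/- cells (adjusted p of 0.00953 and 0.0472), and *Mpo* was not tested without replicate 2 of the LPS-stimulated WT cells, where it was too low.

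The eosinophil relative of *Mpo*, *Epx*, lay in the same libraries at 276 to 323 CPM in WT and 3.08 to 5.39 CPM in 3x*Grk*-/- cells. The eosinophil marker list as a whole (8 genes, none at 0 in all libraries) summed to 1257 to 1330.4 CPM in unstimulated WT cells and 67.0 to 74.5 CPM in unstimulated 3x*Grk*-/- cells, and to 1149.6 to 1251 and 82.9 to 88.9 CPM after LPS. It was lower in 3x*Grk*-/- cells at both conditions, as was *Mpo*, and its part in the granule gene results was not tested.

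Elastase, encoded by *Elane*, passed in neither comparison of the genotypes. Without LPS the WT libraries held 2.87 and 3.78 CPM and the 3x*Grk*-/- libraries 4.04 and 4.51 CPM. With LPS they held 2.36 and 2.48 against 1.64 and 1.78 CPM. The genotype differences were 0.33 ± 0.30 (edgeR, adjusted p = 0.398) and -0.49 ± 0.39 (adjusted p = 0.327), although the libraries did not overlap in either. At 20 to 53 counts per group, the counting intervals of the 3x*Grk*-/- to WT ratio, 0.821 to 1.93 and 0.380 to 1.29, include equality. *Elane* was the only member with a positive estimate between genotypes, in the unstimulated comparison, and the only one not called with LPS.

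*Prtn3*, the gene of proteinase 3, stood at 4.97 and 6.87 CPM in WT and 4.34 and 5.56 CPM in 3x*Grk*-/- cells without LPS, which overlap. After LPS it was at 3.99 and 5.11 CPM in WT and 2.0 and 1.78 CPM in 3x*Grk*-/- cells, which do not. Its genotype difference was -0.30 ± 0.25 (edgeR, adjusted p = 0.336) in unstimulated and -1.27 ± 0.35 (adjusted p = 0.00412) in LPS-stimulated cells. The second call was lost in DESeq2 (adjusted p = 0.0942), without replicate 2 of WT cells with LPS (-1.06, adjusted p = 0.0693) and without replicate 2 of 3x*Grk*-/- cells with LPS (-1.18, adjusted p = 0.0554).

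*Ctsg*, for cathepsin G, was steady in WT cells, at 3.44 and 3.36 CPM without and 3.27 and 3.40 CPM with LPS. The 3x*Grk*-/- libraries gave 2.84 and 1.39 CPM without LPS and 1.09 and 0.486 CPM with LPS, below WT in both conditions. Without LPS the difference of -0.64 ± 0.35 did not pass (edgeR, adjusted p = 0.128), and it passed when replicate 1 of the unstimulated 3x*Grk*-/- cells was left out (-1.27, adjusted p = 0.0478). Without replicate 2 of that group it was -0.25 (adjusted p = 0.685). With LPS the log2 fold change was -2.08 ± 0.46 (adjusted p = 0.000653), with 9 counts against 40, and it was -2.72 without replicate 1 and -1.58 without replicate 2 of the LPS-stimulated 3x*Grk*-/- cells (adjusted p of 0.00196 and 0.0461). Of the azurophil genes *Mpo* was called lower without LPS, and *Mpo*, *Ctsg* and *Prtn3* with LPS, and the genes were not tested against each other.

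Among specific granule genes, *Camp* fell in 3x*Grk*-/- cells at both conditions. It encodes the precursor of the antimicrobial peptide CRAMP. The libraries gave 18.9 and 19.2 CPM in unstimulated WT cells, 10.02 and 7.12 CPM in unstimulated 3x*Grk*-/-, 14.3 and 13.3 CPM in LPS-stimulated WT and 4.91 and 5.67 CPM in LPS-stimulated 3x*Grk*-/- cells. As with *Mpo*, both WT groups lay above both 3x*Grk*-/- groups, and no neighbours overlapped. Its genotype differences were -1.14 ± 0.17 in unstimulated (edgeR, adjusted p = 1.23e-10) and -1.37 ± 0.21 in LPS-stimulated cells (adjusted p = 1.49e-05), which leaves 45.5% and 38.6% of the WT level.

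*Ngp*, a cathelicidin-related granule protein, had another pattern. It was at 100.1 and 85.9 CPM in unstimulated WT cells, 95.9 and 83.7 CPM in unstimulated 3x*Grk*-/-, 76.9 and 91.3 CPM in LPS-stimulated WT, and 49.4 and 47.7 CPM in LPS-stimulated 3x*Grk*-/- cells. The first 3 groups overlapped and only the last stood apart. Accordingly, the difference between genotypes was -0.03 ± 0.07 (edgeR, adjusted p = 0.734) without LPS, a ratio of 0.982 with a counting interval of 0.903 to 1.07, and -0.80 ± 0.10 (adjusted p = 8.11e-07) with LPS. The sign of the first turned when replicate 1 of unstimulated WT cells (0.07) or replicate 2 of unstimulated 3x*Grk*-/- cells (0.06) was left out.

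*Ltf*, encoding the iron-binding lactoferrin, was at 113 and 99.4 CPM in unstimulated WT cells, 77.2 and 77.3 CPM in unstimulated 3x*Grk*-/-, 53.5 and 63.0 CPM in LPS-stimulated WT, and 38.7 and 42.0 CPM in LPS-stimulated 3x*Grk*-/- cells. Every step of that order was free of overlap. It was lower in 3x*Grk*-/- cells at both conditions, with log2 fold changes of -0.45 ± 0.07 (edgeR, adjusted p = 3.27e-10) and -0.53 ± 0.11 (adjusted p = 0.000291).

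*S100a8* and *S100a9*, the calprotectin genes, had the highest levels of the 10 per exon length. *S100a8* was counted at 255 and 257 CPM in unstimulated WT cells, 192 and 194 CPM in unstimulated 3x*Grk*-/-, 103 and 110.0 CPM in LPS-stimulated WT and 52.9 and 61.8 CPM in LPS-stimulated 3x*Grk*-/- cells. *S100a9* was counted at 246 and 225, 150.2 and 144, 79.5 and 103, and 34.0 and 40.4 CPM in the same order of groups. For both genes the 4 groups were fully separated, unstimulated above LPS-stimulated and, within each condition, WT above 3x*Grk*-/-. *S100a8* was lower in 3x*Grk*-/- cells, with a log2 fold change of -0.41 ± 0.05 (edgeR, adjusted p = 1.36e-16) in unstimulated and -0.89 ± 0.09 (adjusted p = 5.05e-08) in LPS-stimulated cells. *S100a9* had -0.67 ± 0.05 (adjusted p = 8.80e-40) and -1.30 ± 0.12 (adjusted p = 9.18e-09).

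*Gfi1* had 2 to 20 counts per library. It had 9 and 4 counts in unstimulated WT (1.72 and 0.561 CPM), 7 and 6 counts in unstimulated 3x*Grk*-/- (1.05 and 1.04 CPM), 18 and 20 counts in LPS-stimulated WT (3.27 and 3.09 CPM) and 2 and 7 counts in LPS-stimulated 3x*Grk*-/- cells (0.364 and 1.14 CPM). Only the LPS-stimulated WT group stood above the others, and the remaining 3 groups overlapped with their neighbours. With LPS the genotypes differed by -2.01 ± 0.48 (log2, edgeR, adjusted p = 0.00129), 9 against 38 counts, and without replicate 1 of the LPS-stimulated 3x*Grk*-/- cells the value was -1.46 (adjusted p = 0.0575), against -3.04 without replicate 2 (adjusted p = 0.00260).

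The response to LPS was read within each genotype, from a single fit of all 8 libraries. In WT cells 5 of 10 genes changed, 4 lower and 1 higher, where 60.3% of the 12541 genes tested were called, 30.8% as lower and 29.5% as higher. In 3x*Grk*-/- cells 9 of 10 changed, all lower, where 55.4% were called and 27.4% called as lower. The median log2 fold change of the 10 was -0.47 in WT and -1.34 in 3x*Grk*-/- cells, against -0.01 over all genes in each.

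In WT cells the decline lay with *S100a9* (-1.35 ± 0.08), *S100a8* (-1.27 ± 0.06), *Ltf* (-0.85 ± 0.08) and *Camp* (-0.47 ± 0.15), with edgeR adjusted p of 3.37e-14, 4.56e-16, 9.81e-10 and 0.0101. The *Camp* call was lost in DESeq2 (adjusted p = 0.138) and without replicate 2 of WT cells, unstimulated (adjusted p = 0.0618) or LPS-stimulated (adjusted p = 0.0626). *Gfi1* was the gene that rose, by 1.57 ± 0.47 (adjusted p = 0.00472) from 13 to 38 counts, with an adjusted p of 0.0873 in DESeq2. It passed the count filter through the LPS-stimulated WT libraries (18 and 20 counts), so a call as higher was favoured in advance. Without replicate 2 of unstimulated WT cells the log2 fold change was 0.88 (edgeR, adjusted p = 0.190). None of the 4 azurophil genes passed in WT cells: *Mpo* stood at -0.79 ± 0.35 (adjusted p = 0.0537), *Elane* at -0.48 ± 0.34, *Prtn3* at -0.40 ± 0.26 and *Ctsg* at -0.02 ± 0.34. *Ngp*, at -0.13 ± 0.09, did not pass either, and it passed without replicate 2 of LPS-stimulated WT cells (-0.26, adjusted p = 0.0160). Scaling by library size alone moved the median of all genes by -0.21 here and called 8 of the 10.

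In 3x*Grk*-/- cells all 4 azurophil genes fell with LPS. The log2 fold changes were -2.04 ± 0.78 for *Mpo* (edgeR, adjusted p = 0.0228), -1.47 ± 0.54 for *Ctsg* (adjusted p = 0.0202), -1.37 ± 0.34 for *Prtn3* (adjusted p = 0.00121) and -1.30 ± 0.35 for *Elane* (adjusted p = 0.00231). The calprotectin genes fell to 25.4% (*S100a9*) and 29.8% (*S100a8*) of the unstimulated level. The specific granule genes had -0.93 ± 0.09 for *Ltf*, -0.89 ± 0.10 for *Ngp* and -0.70 ± 0.23 for *Camp* (edgeR, adjusted p = 0.00972). *Gfi1* did not pass, at -0.43 ± 0.67 (adjusted p = 0.601). *Mpo*, *Ctsg* and *Camp* lost the call in DESeq2 (adjusted p of 0.0967, 0.0982 and 0.0640), and all 3 lost it without replicate 1 of the unstimulated 3x*Grk*-/- cells (-2.15, -0.83 and -0.42). *Mpo* also lost it without replicate 2 of the same group (-1.94), *Mpo* (-1.57) and *Ctsg* (-0.97) without replicate 2 of the LPS-stimulated 3x*Grk*-/- cells, and *Camp* (-0.61) without replicate 1 of these.

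A pass in 3x*Grk*-/- and not in WT cells is not yet a difference between genotypes, so the interaction was tested in the same fit. It asks whether the genotype difference with LPS departs from the one without. It was called for 3 of 10, while 32.5% of all genes tested were called and 16% were called as negative. *Ngp* had -0.76 ± 0.13 (edgeR, adjusted p = 3.32e-05), *S100a9* -0.62 ± 0.13 (adjusted p = 0.000464) and *S100a8* -0.48 ± 0.10 (adjusted p = 0.000275), each on the log2 scale. For these 3 the deficit in 3x*Grk*-/- cells was larger with LPS than without it. The other 7 estimates were also negative and did not pass, from -0.08 ± 0.13 for *Ltf* to -2.00 ± 0.82 for *Gfi1* (adjusted p = 0.0597), which passed without replicate 1 of unstimulated WT cells (-2.87, adjusted p = 0.0269) or replicate 2 of LPS-stimulated 3x*Grk*-/- cells (-3.05, adjusted p = 0.0360), and was -1.29 without replicate 2 of unstimulated WT cells (adjusted p = 0.297). The azurophil genes lay at -1.44 ± 0.64 (*Ctsg*, adjusted p = 0.0841, or 0.0385 without replicate 2 and 0.508 without replicate 1 of unstimulated 3x*Grk*-/- cells), -1.25 ± 0.90 (*Mpo*), -0.97 ± 0.44 (*Prtn3*, adjusted p = 0.0932) and -0.82 ± 0.50 (*Elane*). No interaction of an azurophil gene was called, with standard errors of 0.44 to 0.90.

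Levels of different genes can be set side by side only per length, in RPKM, which is CPM divided by the exon length in kb. In unstimulated WT cells *S100a9* (451 ± 27.3 RPKM, SD, n = 2) and *S100a8* (369 ± 1.20) led, followed by *Ngp* (76.1 ± 8.22), *Ltf* (30.8 ± 2.78) and *Camp* (25.1 ± 0.267). The azurophil genes were far lower, with *Prtn3* at 3.42 ± 0.776, *Elane* at 3.38 ± 0.660, *Ctsg* at 3.29 ± 0.0515 and *Mpo* at 1.04 ± 0.208, and *Gfi1* came last at 0.358 ± 0.257. *Prtn3*, *Elane* and *Ctsg* did not differ beyond their spread. The 3 tiers of calprotectin genes, specific granule genes and azurophil genes held in all 4 groups. Within tiers the order moved: *S100a8* passed *S100a9* in 3x*Grk*-/- cells after LPS (82.6 ± 9.04 against 71.2 ± 8.64, within the spread). *Elane* lay above *Prtn3* beyond the spread in 3x*Grk*-/- cells, without LPS (4.35 ± 0.342 against 2.86 ± 0.498) and with it (1.74 ± 0.106 against 1.09 ± 0.0882). *Ctsg* led the azurophil genes in WT cells after LPS (3.23 ± 0.0944, with *Prtn3* next at 2.63 ± 0.455). Outside the tiers, *Gfi1* (0.998 ± 0.0381) passed *Mpo* (0.608 ± 0.0351) in WT cells after LPS. *Gfi1* also lay above *Mpo* in 3x*Grk*-/- cells after LPS (0.235 ± 0.171 against 0.0768 ± 0.0416), and *Camp* above *Ltf* in WT cells after LPS (18.2 ± 0.959 against 16.9 ± 1.94), both within the spread.

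**Figure D3:**
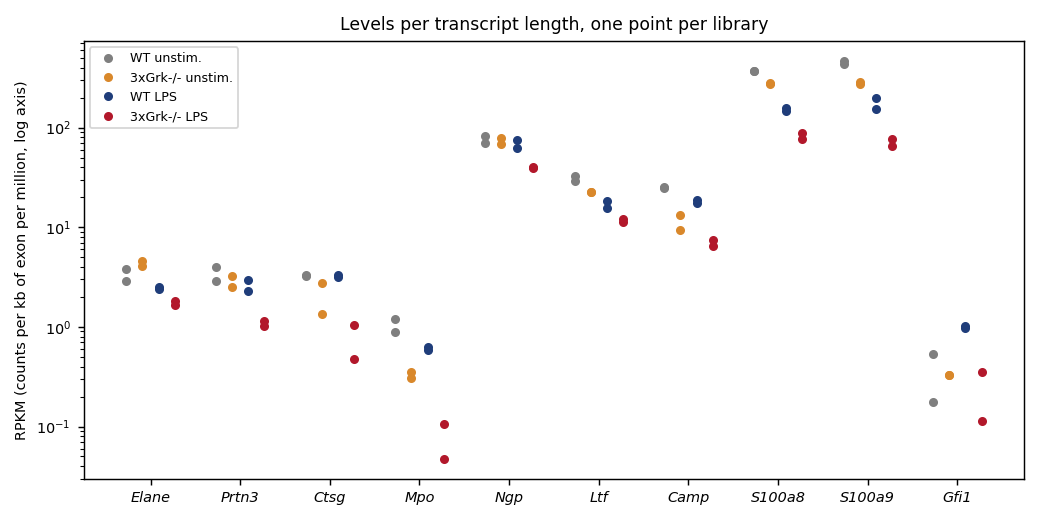
Level per exon length in RPKM (vertical log axis) of each gene (horizontal axis), with 1 point per library, coloured by group. The calprotectin genes lie highest, the specific granule genes in the middle and the azurophil genes and *Gfi1* lowest in all 4 groups, and the lowest point is *Mpo* in LPS-stimulated 3x*Grk*-/- cells.

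Ratios of partner genes within a library do not depend on scaling between libraries. *S100a9* over *S100a8* counts was 0.961 and 0.878 in unstimulated WT, 0.783 and 0.739 in unstimulated 3x*Grk*-/-, 0.775 and 0.940 in LPS-stimulated WT and 0.643 and 0.654 in LPS-stimulated 3x*Grk*-/- cells. The ratio was lower in 3x*Grk*-/- than in WT cells at both conditions without overlap. *Mpo* over *Prtn3* was 0.615 and 0.592, then 0.241 and 0.219, then 0.500 and 0.424, then 0.182 and 0.0909 in the same order of groups. For each *Prtn3* read the 3x*Grk*-/- libraries thus held fewer *Mpo* reads. With LPS these ratios rest on only 2 and 1 *Mpo* counts over 11 and 11 *Prtn3* counts. *Camp* over *Ngp* likewise separated the genotypes, at 0.146 to 0.223 in the 4 WT libraries and 0.0851 to 0.119 in the 4 3x*Grk*-/- libraries. *Ltf* over *Ngp* followed another order, with 1.13 and 1.16 in unstimulated WT cells above all others, and 0.690 and 0.696 in LPS-stimulated WT cells at the bottom. These ratios are a description of 2 libraries per group, and they were not tested.

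**Figure D4:**
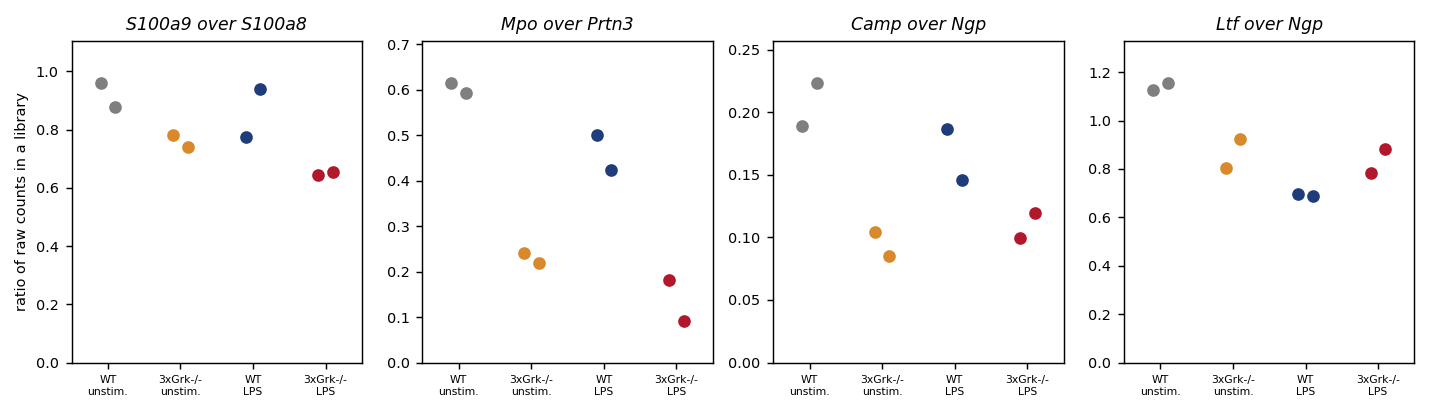
Ratio of raw counts of paired genes (vertical axes, starting at 0) in each library, by group (horizontal axis), with 1 point per library. The first 3 ratios are lower in 3x*Grk*-/- than in WT cells at both conditions, and *Ltf* over *Ngp* is highest in unstimulated WT cells.

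Other genes of granules, neutrophil surface and granulocyte fate gave mixed directions. On 7 lists of granule, S100, neutrophil surface and fate genes, 70 genes are not among the 10. Without LPS 61 of them were tested, 13 were called lower and 38 higher in 3x*Grk*-/- cells, with a median of 0.40 (log2). With LPS 60 were tested, and 10 passed as lower and 33 as higher, at a median of 0.52. Over all genes tested, 22.7% were called as lower and 22.1% as higher without LPS, and 24% and 24.7% with LPS. The medians of the 10 genes described, -0.45 and -1.29, have the opposite sign. These lists were put together with results of these data known, so the counts are a description.

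Beside the 4 azurophil genes, the azurophil list held *Lyz2* and *Cd63* with enough counts to test, and both were higher. *Lyz2* encodes lysozyme, which macrophages make as well, and it stood at 1306 to 1355 CPM in unstimulated WT cells and 7068 to 7093 CPM in unstimulated 3x*Grk*-/- cells, a log2 fold change of 2.41 ± 0.03. With LPS that was 4.0 ± 0.06. *Cd63*, a tetraspanin of granule and lysosome membranes, had 0.69 ± 0.04 and 1.18 ± 0.07. Of the 6 genes that pack, activate or inhibit the serine proteases, 5 were called higher and 1 lower without LPS, and 4 higher and 1 lower with LPS. *Slpi*, a secreted inhibitor of elastase and cathepsin G, was higher by 2.49 ± 0.12 and 3.78 ± 0.10, *Ctsc*, the dipeptidyl peptidase that activates these proteases, by 0.17 ± 0.04 and 0.65 ± 0.06, and the intracellular inhibitor *Serpinb1a* was lower, at -0.62 ± 0.12 and -1.30 ± 0.11. *Cst7* was higher without LPS (0.69 ± 0.20) and did not pass with LPS (-0.42 ± 0.22).

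Specific granule genes split. Apart from *Ngp*, *Ltf* and *Camp*, 8 were tested, and 3 were lower and 5 higher at each condition. *Mmp8*, the neutrophil collagenase, was at 103 to 106 CPM in unstimulated WT cells and 727 to 773 CPM in unstimulated 3x*Grk*-/- cells, and at 24.9 to 25.7 against 362 to 367 CPM with LPS. *Cybb*, a subunit of the NADPH oxidase, was higher by 2.004 ± 0.04 and 2.13 ± 0.07, the iron-scavenging *Lcn2* by 0.26 ± 0.07 and 2.14 ± 0.06, and haptoglobin (*Hp*) by 1.87 ± 0.09 and 0.63 ± 0.10. The 3 lower ones, singled out after their values were seen, were *Olfm4* (-1.86 ± 0.40 and -3.03 ± 0.38), *Chil3* (-0.66 ± 0.05 and -1.0 ± 0.08) and *Cd177* (-0.74 ± 0.15 and -1.54 ± 0.25). Of the 5 gelatinase granule genes, 4 were called higher and 1 lower without LPS, and 3 higher and 0 lower with LPS. *Slc11a1*, *Itgam* and *Mmp9* were higher by 1.56 to 2.50 without LPS and by 2.06 to 2.87 with LPS. *Mmp25* was higher by 0.25 ± 0.04 without LPS and stood at -0.02 ± 0.06 with LPS, and the lower one, *Adam8*, named after its values were seen, had -0.14 ± 0.03 and -0.13 ± 0.05.

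**Figure D5:**
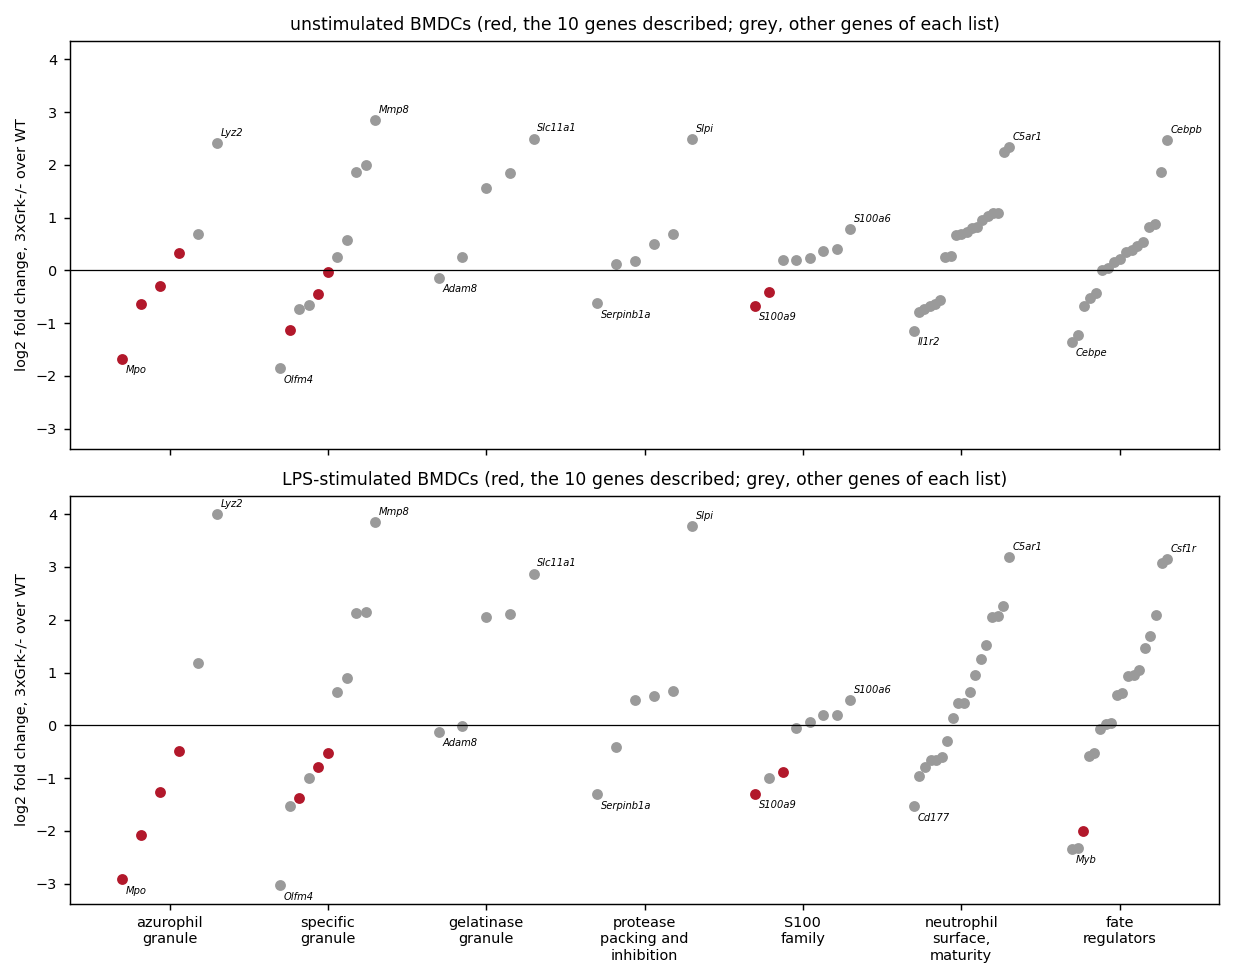
Log2 fold change of 3x*Grk*-/- over WT cells (vertical axis) for every tested gene on 7 lists (horizontal axis, ordered by value within a list), without LPS above and with LPS below. Each point is a gene, red for the 10 genes described and grey for the others, and the lowest and highest of each list are named. With LPS all red points lie below 0, while grey points lie on both sides and reach 4.0 for *Lyz2*.

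No other S100 gene followed *S100a8* and *S100a9* at both conditions. Of the 6 others tested, 5 were higher and 0 lower without LPS, and 2 were higher and 1 lower with LPS. *S100a6* had 0.78 ± 0.04 and 0.48 ± 0.07, *S100a11* 0.22 ± 0.04 and -0.05 ± 0.06, *S100a13* 0.40 ± 0.10 and 0.19 ± 0.10, and *S100a4* 0.36 ± 0.06 and -0.997 ± 0.13. Between genotypes, *S100a4* with LPS was the sole one of the 6 called lower.

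Surface and maturity genes of neutrophils were likewise mixed, with 9 higher and 5 lower of 19 tested without LPS and 8 higher and 3 lower of 18 tested with LPS. Among chemoattractant receptor genes, *C5ar1* was higher by 2.33 ± 0.12 and 3.19 ± 0.15, *Fpr1* by 0.95 ± 0.12 and 2.26 ± 0.09, and *Fpr2* by 1.08 ± 0.10 and 2.07 ± 0.12, while *Cxcr2*, named after its values were seen, was lower (-0.79 ± 0.15 and -0.96 ± 0.32). *Ly6g*, the marker that defines mouse neutrophils, had 13 to 38 counts per library and did not pass in either comparison (-0.64 ± 0.33 and -0.65 ± 0.32), and *Cxcr1* and *Mrgpra2a* were at 0 in all 8 libraries. *Csf3r*, the G-CSF receptor, and the decoy receptor *Il1r2* were lower without LPS (-0.67 ± 0.14 and -1.15 ± 0.09) and higher with it (0.96 ± 0.15 and 0.63 ± 0.12). The reverse order, higher without and lower with LPS, was passed in both by *BC100530* (0.73 ± 0.15 and -0.66 ± 0.26), while *Itgb2l* passed without LPS (1.08 ± 0.12) and had -0.60 ± 0.25 with it, and *Stfa2* had 0.26 ± 0.15 and -0.78 ± 0.37 and passed in neither.

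Among regulators of granulocyte and monocyte fate, *Cebpe* and *Myb* were lower in 3x*Grk*-/- cells at both conditions. *Cebpe*, the C/EBP factor needed for specific granules, was at 13.9 to 16.05 CPM in unstimulated WT cells and 5.04 to 6.43 CPM in unstimulated 3x*Grk*-/- cells, and at 15.2 to 15.8 against 3.08 to 3.09 CPM with LPS. Its genotype differences were -1.35 ± 0.20 and -2.32 ± 0.23, and its log2 fold change with LPS in WT cells was 0.07. *Myb*, a factor of immature blood cells, had -1.23 ± 0.21 and -2.34 ± 0.22. *Cebpb*, prominent in macrophages and emergency granulopoiesis, was higher by 2.47 ± 0.10 and 3.08 ± 0.14, as was the macrophage growth factor receptor *Csf1r* by 0.88 ± 0.04 and 3.15 ± 0.07. Opposite signs at the 2 conditions, with a called interaction, were seen for *Cebpa* (-0.53 ± 0.09 and 1.04 ± 0.19), *Klf4* (-0.43 ± 0.14 and 2.09 ± 0.23), *Irf8* (0.82 ± 0.04 and -0.59 ± 0.05) and *Id2* (0.15 ± 0.04, and -0.08 ± 0.06, which did not pass). In all, 8 of these 17 were higher and 5 lower without LPS, and 10 were higher and 3 lower with LPS.

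Markers of other cells also differed between the groups. Granulocyte-monocyte progenitor markers (6 genes) summed to 205 to 215 CPM in unstimulated WT cells, 133 to 134 CPM in unstimulated 3x*Grk*-/-, 118 to 119.8 CPM in LPS-stimulated WT and 85.8 to 86.7 CPM in LPS-stimulated 3x*Grk*-/- cells. Of these 6, 5 were called lower and 0 higher in 3x*Grk*-/- cells without LPS, and 3 lower and 1 higher with LPS. Neutrophil markers outside the 10 (10 genes) summed to 226 to 231, 847 to 886, 86.4 to 93.1 and 413 to 421 CPM, an order set by *Mmp8*. Of the 9 tested without LPS, 4 were called lower and 3 higher, and of the 8 tested with LPS, 3 lower and 2 higher. Macrophage markers (10 genes) summed to 1018 to 1045, 1500.2 to 1555, 407 to 413 and 2787 to 2847 CPM, DC markers (10 genes) to 25633 to 25885, 13389 to 13674, 17903 to 19486 and 15072 to 15298 CPM, and monocyte markers (5 genes) to 255 to 257, 329 to 333, 183 to 192 and 283 to 308 CPM. Of the 10 macrophage markers 4 were called lower and 5 higher without LPS, and 0 lower and 10 higher with LPS. Of the 10 DC markers 6 were called lower and 3 higher without LPS, and 8 lower and 2 higher with LPS. Monocyte markers had 1 lower and 3 higher of 5 tested without LPS, and 0 lower and 2 higher of 4 with LPS. Mast cell and basophil markers (8 genes, *Mcpt4* at 0) summed to 34.9 to 53.7 CPM, and of the 5 tested 3 were called lower and 1 higher without LPS, and 3 lower and 0 higher with LPS. Lymphocyte markers reached at most 1.70 CPM and erythroid markers at most 0.191 CPM in any library. The part of these cells in the granule gene results was not tested.

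Over the 8 libraries, the genes whose level followed a member most closely were sought among 9149 genes with a mean log2 CPM of at least 3, a level that 5 of the 10 reached. The nearest to *S100a9* were the ribosomal protein genes *Rpl14* (Pearson r = 0.998), *Rps12*, *Rps25* and *Rps4x*, and then *Cacna2d2*. For *S100a8* they included *Cabin1* (0.996), *Eef1g*, *Ppm1j* and *N6amt1*, and for *Ltf* they were *Suv39h1* (0.997), *Parp2*, *Miip*, *Asb2* and *Sqle*. *Ngp* came closest to *Btf3* (0.985), *Rnmt*, *Susd3*, *Ckap4* and *Prkag2*, and the genes nearest to *Camp* included *Cdc42se2* (0.995), *Gimap1*, *Cyth3* and *Slc41a1*. None of these genes was on the granule lists. Between members, r was 0.990 for *S100a8* with *S100a9* and for *S100a9* with *Ltf*, and 0.722 for *S100a8* with *Camp*, the lowest. The 8 points are 4 groups of 2 libraries, so an r near 1 says only that the levels moved between the groups in a similar way. *S100a8* and *Camp*, at 0.722, put the groups in different orders.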

How the data were processed

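RNA from BMDCs was extracted with phenol-chloroform and made into libraries with a stranded mRNA protocol. The authors aligned reads to mm10 (GRCm38) and counted them with featureCounts, whose annotation release and strand setting are not given in the sources used here. The values that the authors deposited are raw read counts per gene in 2 tables, and 0 columns were left without a sample. The methods mention technical replicates, and where nothing says that the 2 libraries of a group came from separate cultures, p-values measure only the spread between them. With 2 against 2 libraries the smallest p of an exact permutation test is 0.333, so none was run.

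Counts were fitted in R 4.3.3 with edgeR 4.0.16 (TMM, filterByExpr, quasi-likelihood test, Benjamini-Hochberg). Genotypes were compared within each table, and LPS responses and the interaction in a fit of 8 libraries. A standard error is the log2 fold change over the square root of F. CPM and RPKM were computed from the counts with TMM factors and GENCODE M21 exon lengths. Counting intervals (95%) are exact binomial ones and cover counting error only. The fits were first tested on simulated data.

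Alternatives were DESeq2 1.42.0, RLE factors, library size only, no filter, at least 10 counts in every library, a replicate block, a BCV of 0.4, the genotype contrasts from all 4 groups, leaving out each library, and, added after the data were seen, leaving out *Gm42418*. The 10 genes and all lists were chosen with earlier results of these data known. All 10 are named, and of other list genes up to 4 per list, those with the largest genotype change among genes that passed, did not overlap between genotypes and had 3 or more as mean log2 CPM, and those with opposite genotype directions and a called interaction. *Ly6g*, *Epx*, *Olfm4*, *Chil3*, *Cxcr2*, *Adam8*, *Cd74*, *Flt3*, *Cxcr1* and *Mrgpra2a* were named after their values were seen. Symbols came from GENCODE M21, which matched 47224 of 47937 IDs. Of the genes nearest in level to a member, 5 for each, a few are not reported here.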

Additional observations from a re-analysis of the deposited data

Results flagged for a closer look

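The genotype difference with LPS departed from that without LPS, by the interaction term of the edgeR fit (adjusted p under 0.05), for 3 of the 10 genes and for 31 further genes that the naming rule took from the lists. Among the 31, *Csf3r*, *Itgb2l*, *Il1r2*, *Stfa2*, *BC100530*, *Cebpa*, *Irf8*, *Klf4* and *Id2* were named because their interaction was called with opposite genotype directions. Their place in this count was thus fixed by the rule. Values are log2 fold changes with LPS minus without, and for the 10 genes they were -0.48 for *S100a8*, -0.62 for *S100a9* and -0.76 for *Ngp*. Among azurophil and protease-related genes they were 1.59 for *Lyz2*, 0.49 for *Cd63*, 1.29 for *Slpi*, -0.68 for *Serpinb1a*, -1.11 for *Cst7* and 0.48 for *Ctsc*. Specific and gelatinase granule genes had 1.01 for *Mmp8*, 1.89 for *Lcn2*, -1.23 for *Hp*, 0.38 for *Slc11a1*, 0.54 for *Itgam* and -0.27 for *Mmp25*. The S100 genes had -1.36 for *S100a4*, -0.30 for *S100a6* and -0.28 for *S100a11*. Surface and maturity genes had 0.86 for *C5ar1*, 1.31 for *Fpr1*, 0.99 for *Fpr2*, -0.80 for *Cd177*, 1.63 for *Csf3r*, -1.68 for *Itgb2l*, 1.78 for *Il1r2*, -1.04 for *Stfa2* and -1.39 for *BC100530*. Fate regulators had 2.27 for *Csf1r*, -1.11 for *Myb*, -0.97 for *Cebpe*, 1.57 for *Cebpa*, -1.41 for *Irf8*, 2.52 for *Klf4* and -0.23 for *Id2*. Of the list genes outside the 10, 61 were tested and 37 had a called interaction (60.7%), 17 negative and 20 positive, and not all are named here. A called interaction was common, at 32.5% of all genes tested. It was also called for *Chil3* (-0.34), *Grk2* (-0.78) and *Grk6* (-0.35), and for several of the genes named for a level pattern like that of a member.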

How the results depend on the processing

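A BCV of 0.4 for every gene left 0, 1, 0, 2 and 0 of the 10 genes called, in the order genotype without LPS, genotype with LPS, LPS in WT, LPS in 3x*Grk*-/- and interaction, where 5, 9, 5, 9 and 3 were called. For LPS in WT cells DESeq2 called 3 and scaling by library size alone 8. Leaving out each library gave 5 to 6, 7 to 9, 3 to 5, 6 to 9 and 3 to 4 in the same order. Signs turned in leave-one-out fits for *Ngp* between unstimulated genotypes (-0.15 to 0.0701), *Ctsg* with LPS in WT cells (-0.0509 to 0.00782), *Gfi1* with LPS in 3x*Grk*-/- cells (-1.47 to 0.12) and the interaction of *Ltf* (-0.19 to 0.0423) and *Camp* (-0.45 to 0.0485), none of which was called. Replicate numbers did not pair the libraries, since correlations of same-numbered deviations were -0.0635 to 0.0677, and a replicate block called 5, 9, 5, 9 and 3. Over single genes, 644 values kept direction and side of the threshold, 48 lost and 9 gained the call and 7 turned sign. The cause was not tested. Over all genes, DESeq2 called 3086 against 5369 without LPS and 2643 against 4070 for the interaction, and a BCV of 0.4 left 448, 782, 1110, 850 and 72 genes. Library size alone shifted the median of all genes by -0.08, -0.09, -0.21, -0.22 and -0.00, and the share of calls that were lower rose from 50.7 to 64.2% without LPS, 51.0 to 68.9% for LPS in WT and 49.5 to 69.8% for LPS in 3x*Grk*-/- cells. Azurophil genes and *Gfi1* had 1 to 49 counts per library, which limits what could be detected for them.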
